A study of Pleurotus ostreatus with 53 samples.

Results

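Of the 11820 genes with mRNA values in the oyster mushroom Pleurotus ostreatus, 35 formed a set whose transcripts fell steeply when vegetative mycelium gave way to fruiting structures. They were chosen by their mRNA level: the mean log2(RPKM + 1) over 3 libraries had to be at least 4 lower in primordium and in fruitbody than in mycelium of the N001 dikaryon. RPKM is the number of reads scaled by gene length and by the size of the library. In all, 121 genes met both thresholds. Of these, 86 were left out because both dikaryon mycelia stood at least 2 log2 units above the higher of the 2 monokaryons, and the remaining 35 are described here. All 35 passed the filter on low values used for testing, as did 10928 of the 11820 genes.

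The oyster mushroom is a white-rot fungus that grows as a network of hyphae through wood and secretes enzymes that break it down. Compatible monokaryons, each with a single kind of nucleus, mate to form a dikaryon that carries both kinds side by side. Under suitable conditions the dikaryotic mycelium knots into primordia, which grow into the fruitbody that bears the spores. In many fungi CG methylation is concentrated on transposable elements (TEs), and small RNA libraries can hold both RNA interference products and fragments of longer RNA. The files give gene numbers without names, so no functions are stated, and the tissue labels could not be checked against marker genes.

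From the N001 dikaryon, mycelium, primordia (the knots that start a mushroom) and fruitbodies were collected. HyB, labelled N001_HyB, is a dikaryon obtained by crossing PC9 and PC15. It was collected as mycelium only, as were the monokaryons PC9 and PC15. Every library is bulk tissue of the stated strain, and no further treatment is given. Every group had 3 libraries each for mRNA and small RNA and 3 for bisulfite sequencing, except the primordium with 2 bisulfite libraries, 53 in all. The mRNA libraries held 19628882 to 30123572 reads, as worked back from the RPKM values. For small RNA only the reads in genes and TE copies are known, 191411 to 5746479 per library. In the mRNA reads as a whole, replicate 1 differed more from replicates 2 and 3 than these did from each other in every group but fruitbody. For these genes HyB replicate 1 stood apart. The median of the 35 was 8.23 RPKM in HyB replicate 1, against 48.8 and 48.0 in HyB replicates 2 and 3. Over all genes the median was 15.1, 17.3 and 17.7. Among the N001 libraries, mycelium replicate 1 was the lowest of its group for 31 of the 35 genes and primordium replicate 1 the highest for 28. Over all genes tested the shares were 55.9% and 41.2%.

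The 35 genes were among the more abundant transcripts of N001 mycelium and mostly among the less abundant in both fruiting stages. Their N001 mycelium level ranged from 4.65 to 8.76 on the log2(RPKM + 1) scale with a median of 6.49, above 90.3% of all genes for the median member and above 62.5% for the lowest. The median was 1.78 in primordium and 1.31 in fruitbody, where the median member stood above 23.4% and 19.5% of all genes. The difference from mycelium had a median of -4.48 in primordium (from -6.09 to -4.01) and -5.06 in fruitbody (from -6.04 to -4.34), against -0.05 and -0.07 over all genes. These differences are the ones the genes were selected on and are given as a description. All 35 were also among the genes called lower by limma, which made up 21.8% of the genes tested in primordium and 29.9% in fruitbody. As the rule used this contrast, that count is no further result. In bulk tissue, fewer cells of a type and less RNA per cell cannot be told apart.

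Gene 1042435, the shortest of the set at 613 bp (scaffold 5, 115041 to 115653), had the largest mean fall. It stood at 52.7, 131 and 139 RPKM in mycelium, 0.250, 0.691 and 0.488 in primordium, and 0.271, 0.879 and 0.466 in fruitbody. Every fruiting library was below 1 RPKM and every mycelium library above 50, and the 4 to 12 reads behind each fruiting value leave those levels coarse. Gene 1062479 (scaffold 3, 1625718 to 1627217) came next, with 78.9, 142 and 151 RPKM in mycelium, 1.68, 1.10 and 1.25 in primordium, and 1.02, 1.64 and 0.652 in fruitbody. In 4 of the 35 genes every primordium and fruitbody library was under 1 RPKM. Over the set, the median member value rested on 3637 reads in a mycelium library, 104 in a primordium library and 62 in a fruitbody library.

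The 2 genes with the highest mean log2 level in mycelium differed in how evenly their libraries fell. Gene 1036190 (scaffold 3, 4537285 to 4539309) had 603, 353 and 379 RPKM in mycelium, 26.7, 15.3 and 15.3 in primordium, and 1.72, 10.8 and 9.97 in fruitbody. Gene 1114660 (scaffold 11, 1952355 to 1954274) had 274, 411 and 141 RPKM in mycelium, 28.4, 2.51 and 2.58 in primordium, and 5.70, 3.22 and 1.85 in fruitbody. In both genes the stages did not overlap between mycelium and either fruiting stage, while primordium replicate 1 was the highest primordium library.

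The threshold of 4 cut through a continuous range. The members nearest to it were gene 1092424, with differences of -4.01 in primordium and -4.34 in fruitbody, and gene 1114313, with -4.06 and -4.53. Just outside stood gene 1073281, with -4.00 and -4.98, and gene 1114496, with -3.99 and -4.32. Gene 1092424 shares 203 bases with gene 173131, and reads in the overlap cannot be assigned to either. It was the only member to overlap another listed gene.

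**Figure D1:**
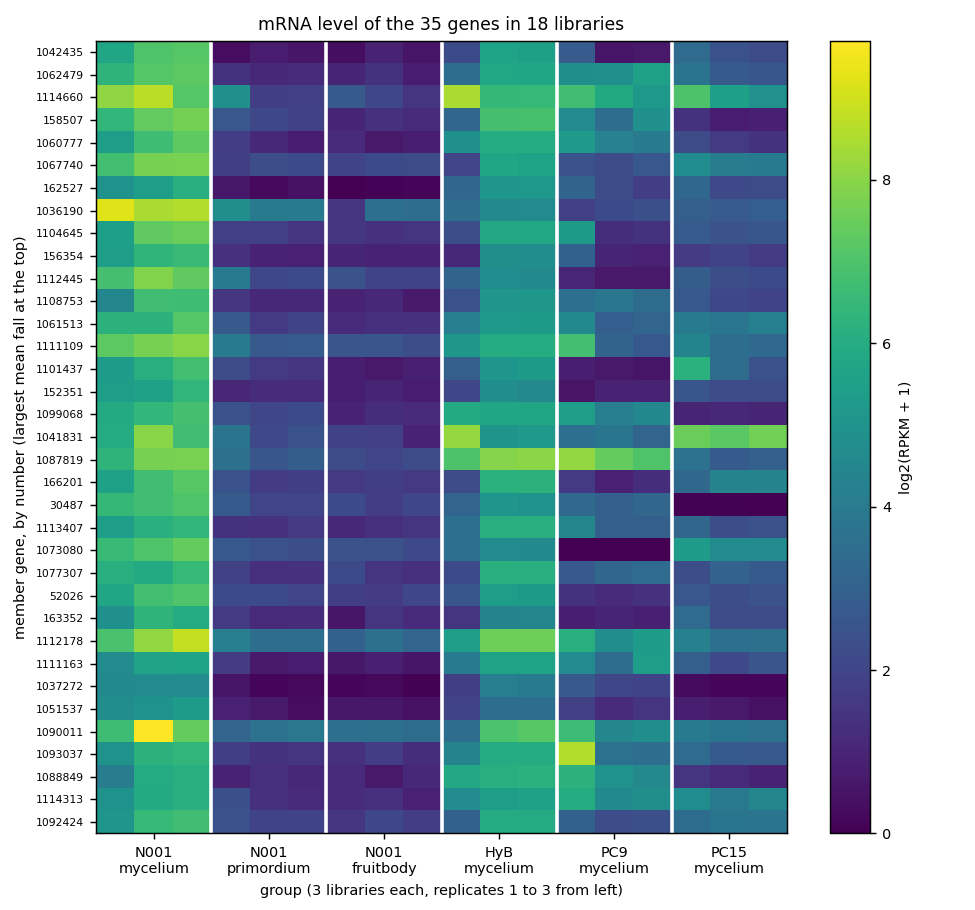
Heat map of the mRNA level, log2(RPKM + 1), of the 35 genes (rows, labelled by gene number, largest mean fall at the top) in 18 libraries (columns, 3 per group in the order of replicates 1 to 3). N001 mycelium is bright, both fruiting stages are dark, and the first HyB column is darker than the other HyB columns in 32 of the 35 rows.

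In fruitbody against primordium limma called 0.275% of all genes and 0 of the 35, so this count says little about the set. An unadjusted p under 0.05 was found for 2 of the 35, as for 945 of all 10928 genes tested. With a pseudocount of 0.1 in place of 1, limma called 1 of the 35 lower. The primordium and fruitbody means each entered the choice of the genes, so the differences between them are a description. The fruitbody mean was below the primordium mean in 32 of 35 genes, with a median difference of -0.32, against -0.04 over all genes. In 11 of 35 every fruitbody library was below every primordium library, as in 1306 of all 10928 genes tested. Without primordium replicate 1 the median difference was -0.16. The largest difference was in gene 1036190, at -1.46 (SE 0.47, limma adjusted p = 0.284).

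The other mycelia held less of these transcripts than N001 mycelium. N001 mycelium had the highest mean of the 6 groups in 32 of 35 genes. The median level was 4.88 in HyB, 3.16 in PC9 and 2.70 in PC15 on the log2(RPKM + 1) scale, against 4.17, 3.89 and 4.13 over all genes. In 16 genes the groups ran in the order N001 mycelium, HyB, both monokaryons, primordium and fruitbody. Because the genes were chosen for being high in N001 mycelium, its height over the other mycelia is a description only.

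Counting a group as near N001 mycelium when its mean was less than 2 log2 units lower, 14 genes were near it in HyB alone and 7 in HyB and PC9. A single gene was near it in HyB and PC15, and 1 in all 3 other mycelia. In the remaining 12 genes N001 mycelium stood at least 2 log2 units above HyB and both monokaryons. These classes rest on the HyB mean with replicate 1. The mean of HyB replicates 2 and 3 alone was near N001 mycelium in 32 of the 35 genes. Gene 1036190, with its 445 ± 138 RPKM in N001 mycelium, belongs to these 12: it had 9.96, 22.9 and 24.6 RPKM in HyB, 2.54, 3.54 and 4.22 in PC9, and 6.58, 5.82 and 6.38 in PC15. Gene 1114313 (scaffold 10, 455449 to 456570) is the one near N001 mycelium everywhere, with 53.7 ± 20.6 RPKM in N001 mycelium, 37.9 ± 11.4 in HyB, 37.9 ± 21.9 in PC9 and 20.1 ± 5.65 in PC15 (SD, n = 3 each). Over the set, the N001 mycelium mean exceeded the HyB mean in 33 of 35 genes by a median of 1.64. limma called 12 of the 35 higher in N001 mycelium than in HyB, where 3.61% of all genes were called. Without HyB replicate 1 the count was 9, and without N001 mycelium replicate 2 or 3 it was 8 or 6. Since the genes were selected on N001 mycelium, these counts are no support for a difference.

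The HyB libraries split for this set. In mRNA reads as a whole, HyB replicates 2 and 3 were nearly alike. Their chi-square over its degrees of freedom was 3.82, against 512.2 and 523.5 with replicate 1. They may therefore count for less than 2 separate libraries. HyB replicate 1 was the lowest HyB library for 32 of 35 genes, against 47.1% of all genes tested. It was at least 2 log2 units below both other HyB libraries in 18 of 35 genes, against 3.94% of all genes tested. HyB replicates 2 and 3 lay within 2 log2 units of the N001 mycelium mean in 32 of 35 genes, and HyB replicate 1 in 9. The median gap to the N001 mycelium mean was 0.89 for HyB replicates 2 and 3 and 3.15 for HyB replicate 1. The 86 genes left out showed the same split, with medians of 12.5, 122 and 127 RPKM in HyB replicates 1, 2 and 3, and replicate 1 lowest in 82 of 86.

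HyB replicate 1 also bears on which genes are in the set. The exclusion compares HyB and N001 mycelium means with the higher monokaryon, and 20 of the 35 genes lay within 1 log2 unit of that limit. Without HyB replicate 1, 22 of the 35 genes would remain and the other 13 would count as raised in both dikaryons. Leaving out N001 mycelium replicate 1 would instead enlarge the set to 71 genes, the same 35 among them. What sets these libraries apart was not tested.

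**Figure D2:**
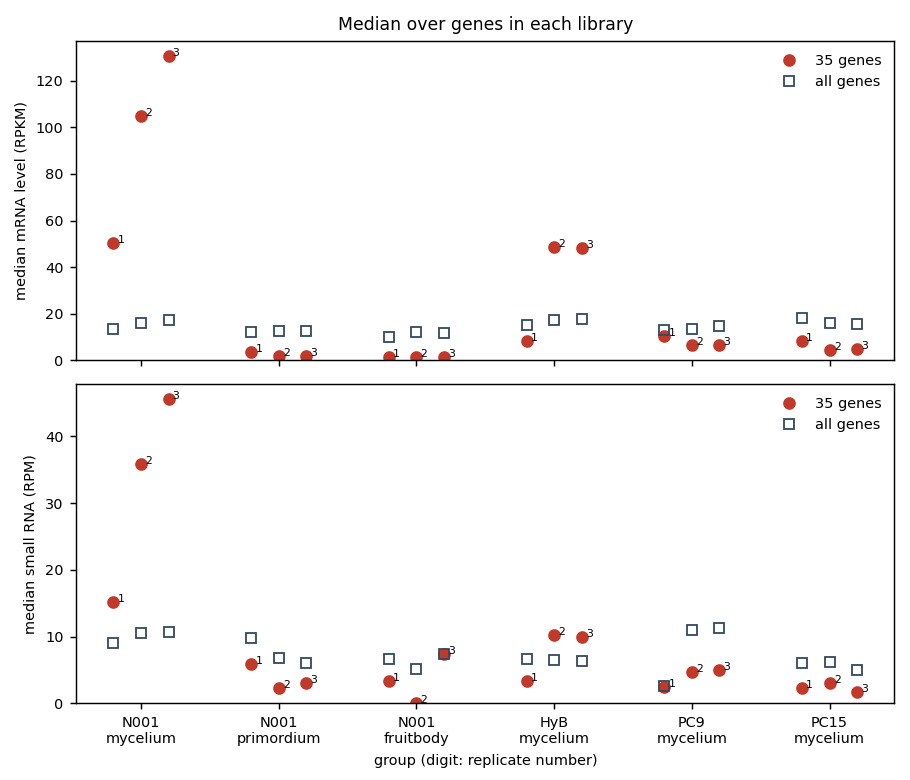
Median mRNA level in RPKM (top) and median small RNA in RPM (bottom) over the 35 genes (filled circles, with the replicate number) and over all genes (open squares) in each library. The median of the 35 was 50.5 to 131 RPKM in N001 mycelium and 1.37 to 3.47 in the fruiting stages, and HyB replicate 1, at 8.23, lay far below HyB replicates 2 and 3.

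The HyB mean lay above both monokaryon means in 32 of the 35 genes, between them in 3 and below both in none, against 27.9%, 38.5% and 33.5% of all genes tested. The exclusion used the HyB, PC9 and PC15 means and the genes were chosen for a high level in N001 mycelium, so the counts of this comparison are a description of the chosen genes and support nothing. Against PC15, 21 of the 35 genes were higher in HyB and 0 lower, where limma called 19% of all genes higher and 28.0% lower. Against PC9, 19 were higher and 0 lower, where 23.3% of all genes were called higher and 14.9% lower. At an unadjusted p under 0.05, 26 genes differed from PC15 and 23 from PC9 in either direction, as did 5899 and 5075 of all 10928 genes tested. Without HyB replicate 1, 31 genes were higher and 1 lower than in PC15, and 27 higher than in PC9. The HyB replicates that then remain were nearly alike, so the spread in that fit may be understated. Without PC9 replicate 1, 26 were higher than in PC9, and without PC15 replicate 3, 15 were higher than in PC15. With replicates 2 and 3 averaged as a single library in both HyB and primordium, 14 were higher than in PC15 and 14 higher than in PC9.

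The largest rises over each parent came in genes with very low mRNA values in that parent. These genes were picked as the largest differences, and the exclusion used the same group means. Their p-values are therefore a description and no further support. Gene 1088849 (scaffold 4, 329292 to 330969) had 56.8, 66.2 and 72.5 RPKM in HyB, 74.9, 30.8 and 22.9 in PC9 and 1.81, 1.25 and 0.909 in PC15. HyB exceeded PC15 by 4.85 on the log2 scale (SE 0.46, limma adjusted p = 5.01e-07) and overlapped PC9. Gene 1099068 (scaffold 1, 1797414 to 1798827) had 60.8, 53.0 and 51.1 RPKM in HyB, 42.1, 16.5 and 22.4 in PC9 and 1.01, 1.12 and 1.02 in PC15, with HyB 4.77 above PC15 (SE 0.29, limma adjusted p = 3.33e-09). It is one of the 3 genes in which HyB replicate 1 was the highest HyB library. For gene 1073080 (scaffold 1, 304173 to 305806), PC9 was the parent with almost no reads. This gene had 10.6, 24.9 and 23.9 RPKM in HyB, 0.0247, 0 and 0 in PC9 and 39.7, 24.9 and 24.4 in PC15. It also lacked a PC9 methylation value, and whether it is present in the PC9 genome was not tested. HyB exceeded PC9 by 4.28 (SE 0.30, limma adjusted p = 1.60e-08) and no HyB library rose above the PC15 range. Gene 1101437 (scaffold 3, 1598381 to 1599127) had 6.60, 33.5 and 37.7 RPKM in HyB, 0.758, 0.603 and 0.479 in PC9, and a wide 73.3, 9.83 and 4.43 in PC15. There HyB exceeded PC9 by 3.75 (SE 0.74, limma adjusted p = 8.05e-04).

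Between the monokaryons, 19 of the 35 genes were called in either direction, where 46.8% of all genes were. The exclusion used the higher monokaryon mean, so genes high in just one of the monokaryons were more likely to stay in the set and the counts are not independent of the choice. In PC9 against PC15, limma called 11 genes higher, where 16.1% of all genes were, and 8 lower, where 30.6% were. The median difference was 0.39, against -0.23 over all genes. Without PC9 replicate 1 the median turned to -0.27 and the calls were 9 higher and 7 lower. That library was the highest PC9 library in 25 of 35 genes, against 36.9% of all genes tested. Without PC15 replicate 1 the calls were 10 higher and 5 lower. That library was the highest PC15 library in 27 of 35 genes, against 60.6% of all genes tested. Every PC9 library was above every PC15 library in 14 of 35 genes and below in 11, against 20.4% and 37.9% of all genes tested.

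The genes named next were picked as the largest differences between the monokaryons, so their p-values are likewise a description. Gene 1087819 (scaffold 1, 2689613 to 2690665) was the largest of the rises in PC9, with 282, 170.0 and 128 RPKM in PC9 and 11.4, 5.76 and 6.80 in PC15. The difference was 4.41 (SE 0.41, limma adjusted p = 2.28e-07). HyB, at 127, 246 and 259 RPKM, and N001 mycelium, at 79.0, 211 and 212, were on the PC9 side. Gene 1088849, described above, was second at 4.07 (SE 0.46, limma adjusted p = 2.33e-06). Of the falls, gene 1073080 was the largest at -4.89 (SE 0.30, limma adjusted p = 1.31e-09). It was followed by gene 1041831 (scaffold 5, 2081074 to 2081721), with 10.7, 12.6 and 8.01 RPKM in PC9 and 181, 149 and 196 in PC15, a difference of -3.96 (SE 0.68, limma adjusted p = 1.74e-04). In HyB, gene 1041831 had 289.8 RPKM in replicate 1, above every PC15 library, and 31.5 and 35.8 in replicates 2 and 3, between the parents. In N001 mycelium it had 61.6, 248 and 104 RPKM.

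**Figure D3:**
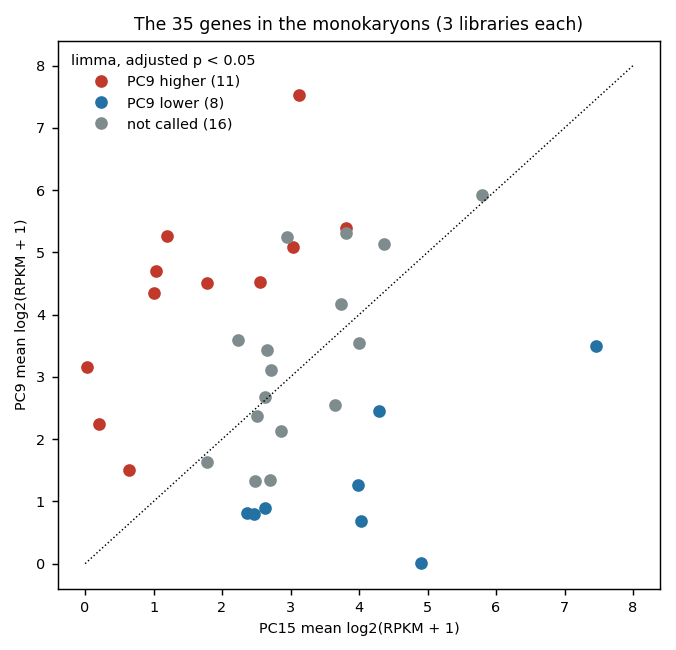
Mean log2(RPKM + 1) of each of the 35 genes in PC9 (vertical axis) against PC15 (horizontal axis), 3 libraries each, with the dotted line at equal levels. Red points are the 11 genes called higher in PC9, blue points the 8 called lower and grey points the 16 not called by limma.

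Small RNA reads over the same genes ran with the mRNA pattern. Reads were counted over whole genes without size or strand, so the values do not tell interference products from fragments of mRNA. The median RPM (reads scaled to the gene and TE reads of the library) of the 35 was 15.1, 35.8 and 45.6 in N001 mycelium, 5.89, 2.28 and 3.01 in primordium, and 3.29, 0 and 7.35 in fruitbody. Over all genes it was 9.08, 10.6 and 10.7 in N001 mycelium, so the set lay above the typical gene in every N001 mycelium library. It was at or below the typical gene in every fruiting library. Summed over the 35 genes, 1242 to 2152 RPM were found in N001 mycelium libraries, 155 to 242 in primordium and 172 to 333 in fruitbody. The other mycelia had medians of 3.31, 10.3 and 9.90 RPM in HyB, 2.44, 4.70 and 5.0 in PC9 and 2.28, 3.12 and 1.66 in PC15. Of these, HyB replicates 2 and 3 were above the median of all genes and the others below it. Replicate 1 was again the lowest library in N001 mycelium and HyB and the highest in primordium. Fruitbody replicate 2 was the shallowest small RNA library of the study, with 33 reads over the whole set and none for 22 of the 35 genes.

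The stages compared are those on which the genes were chosen by mRNA, and the labels do not say whether both RNA assays used the same cultures, so the calls are not independent of the choice. With no filter, edgeR called 12 of the 35 genes lower in primordium than in mycelium, where 1.42% of all genes were, and 13 lower in fruitbody, where 3.12% were. None was called higher. Under the filter on low counts, which 25 of the 35 genes passed partly through their mycelium reads, 13 were called lower in primordium (2.79% of all genes) and 12 in fruitbody (5.16%). Without mycelium replicate 2 or 3, or any primordium library, 4 or 5 were called in primordium, and without mycelium replicate 2 or 3, or any fruitbody library, 5 to 7 in fruitbody.

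Genes 1036190 and 1067740 carried the most small RNA. Gene 1036190 had 433, 293 and 314 RPM in mycelium, 51.1, 20.5 and 30.1 in primordium, and 32.9, 52.2 and 77.2 in fruitbody. Gene 1067740 (scaffold 9, 108605 to 111982) had 98.4, 192 and 309 RPM in mycelium, 7.86, 11.4 and 12.03 in primordium, and 9.88, 0 and 11.02 in fruitbody. For gene 1067740 the log2 difference in primordium was -3.62 (SE 0.66, edgeR adjusted p = 0.00306). Gene 1062479 had 15.1, 65.0 and 105 RPM in mycelium, 5.89, 2.28 and 3.01 in primordium, and 1.65, 0 and 3.67 in fruitbody, with an edgeR adjusted p of 0.00225 in fruitbody. Gene 1073080 had 18, 35 and 34 reads in mycelium, 0, 0 and 1 in primordium and 2, 0 and 1 in fruitbody. Its edgeR adjusted p was 0.00676 in primordium and 0.00581 in fruitbody, and the primordium call was lost without primordium replicate 1. No fold is given for these 2 genes because the fruiting counts are so few. In each of these genes the mycelium libraries did not overlap the fruiting libraries.

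**Figure D4:**
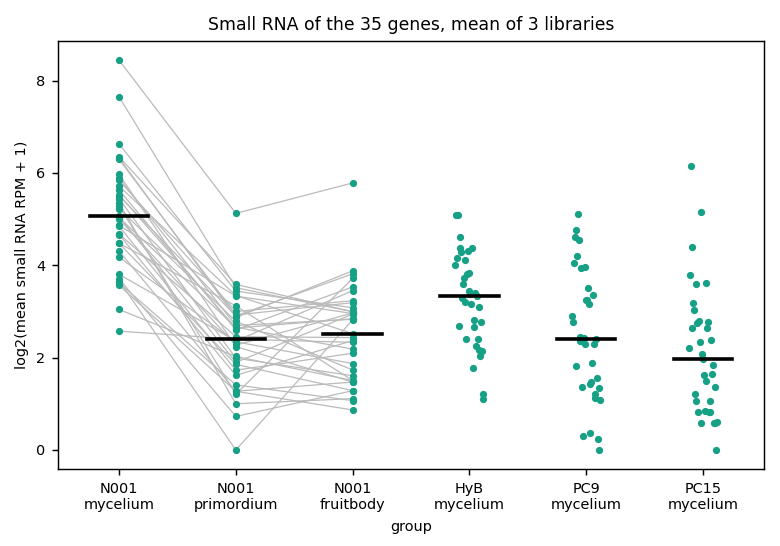
Small RNA level of the 35 genes, log2(mean RPM + 1) over 3 libraries, in 6 groups. Points are genes, grey lines join a gene across the N001 stages and black bars are medians, which correspond to a median mean level of 32.3 RPM in mycelium, 4.28 in primordium and 4.74 in fruitbody.

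Among the mycelia, the median small RNA of the set was highest in N001, on whose mRNA the genes were chosen. With no filter, edgeR called 4 of the 35 genes higher in N001 mycelium than in HyB, where 0.763% of all genes were, and none lower. Under the filter on low counts, passed by 25 of the 35 partly through their N001 mycelium reads, 4 were called higher (1.29% of all genes), and 3 without HyB replicate 1. Gene 1036190 led, with 433, 293 and 314 RPM in N001 mycelium and 11.6, 21.9 and 11.7 in HyB, a difference of 3.83 (SE 0.52, edgeR adjusted p = 2.16e-04). Gene 1112445 (scaffold 4, 3319472 to 3320892) had 37.9, 99.5 and 95.2 RPM in N001 mycelium and 4.96, 2.58 and 5.40 in HyB, a difference of 3.32 (SE 0.68, edgeR adjusted p = 0.00783). Its mRNA was 114, 231 and 159 RPKM in N001 mycelium and 7.70, 25.2 and 24.0 in HyB.

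In PC9 against PC15 with no filter, edgeR called 6 of the 35 genes higher in small RNA and 4 lower. Of all 11789 genes then tested, 1122 were called higher and 1285 lower. The filter on low counts was passed by 25 of the 35, partly through their N001 mycelium reads. Under it 6 were called higher (14.6% of all genes) and 4 lower (15.3%). Without PC9 replicate 1 the calls were 5 higher and 7 lower of the 28 genes that then passed, and the median difference was -0.14, against 0.79 with all libraries. Gene 1060777 had 14.97, 29.8 and 22.5 RPM in PC9 and 0, 1.56 and 1.66 in PC15 (edgeR adjusted p = 6.86e-04), and gene 1087819 had 8.70, 46.3 and 46.2 RPM in PC9 and 0.759, 1.56 and 1.66 in PC15 (edgeR adjusted p = 3.34e-04). On the other side, gene 1073080 had 0.870, 0 and 0 RPM in PC9 and 11.4, 10.9 and 11.6 in PC15 (edgeR adjusted p = 0.00105), and gene 1041831 had 3.83, 5.49 and 3.75 RPM in PC9 and 34.9, 31.2 and 38.2 in PC15 (edgeR adjusted p = 0.00434). All 4 moved the same way in mRNA. Of the 10 small RNA calls, 8 were also mRNA calls in the same direction. Among the 25 genes tested in both assays, these were 80.0% of the 10 small RNA calls and 61.5% of the 13 mRNA calls. Over the 6353 genes tested in both assays the shares were 72.2% and 45.8%, so the share of small RNA calls was close to that elsewhere. Neither difference in share was tested. Gene 1090011 was called in small RNA only, with 5.57, 22.7 and 18.7 RPM in PC9 and 115, 28.1 and 68.1 in PC15 (edgeR adjusted p = 0.00135). Its mRNA was 99.5, 21.7 and 26.3 RPKM in PC9 and 15.04, 12.5 and 11.5 in PC15. The mRNA thus ran the other way, with every PC9 library above every PC15 library. That mRNA difference was not called by limma, and PC9 replicate 1 was far above the other PC9 libraries. Of the 25 genes tested in both assays, 0 were called in opposite directions, against 41 of all 6353.

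CG methylation of the set was near 0, as for the typical gene, and no gene in or outside the set passed the test of a change at fruiting. The median CG methylation of the 35 genes was 0.207% in N001 mycelium, 0.230% in primordium and 0.233% in fruitbody, against 0.219%, 0.236% and 0.231% over all genes. A single gene of the 35 exceeded 1% in any library, compared with 1411 of 11656 genes listed. limma called 0 of 34 testable members in primordium against mycelium and 0 in fruitbody against mycelium, with 3 and 2 at an unadjusted p under 0.05, as had 467 and 525 of all 11140 genes tested. It called 0.0% of all genes in the primordium comparison and 0.0% in the fruitbody comparison, also on a logit scale. In N001 mycelium against HyB it called 0 of 34, where 7.52% of all genes were called. At an unadjusted p under 0.05 there were 2, against 1352 of all 11140.

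The exception was gene 30487 (scaffold 6, 2716245 to 2717390), which lies 17.3 kb from the last coordinate listed for its scaffold. Its CG methylation was 44.7%, 37.3% and 37.99% in N001 mycelium, 42.2% and 36.1% in primordium, and 42.8%, 33.7% and 35.9% in fruitbody. It was 51.5%, 48.0% and 45.3% in HyB, 1.28%, 0.698% and 0.622% in PC9 and 79.9%, 79.6% and 80.2% in PC15. The monokaryons stood at opposite ends, both dikaryons lay between them and the N001 stages overlapped. In PC9 against PC15 the difference was -79.0 percentage points (SE 2.65, limma adjusted p = 4.89e-13).

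The mRNA of gene 30487 ran opposite to methylation in the monokaryons but not across the N001 stages. It had 8.96, 6.79 and 8.12 RPKM in PC9 and 0.0319, 0.0373 and 0 in PC15, a difference of 3.12 on the log2 scale (SE 0.39, limma adjusted p = 6.09e-06). In HyB it had 8.03, 32.8 and 30.9 RPKM. N001 mycelium had 87.7, 105 and 131 RPKM, primordium 5.77, 3.03 and 3.09 and fruitbody 3.47, 2.39 and 3.16, while methylation moved by -0.821 points in primordium (SE 2.96, limma adjusted p = 1) and -2.51 points in fruitbody (SE 2.65, limma adjusted p = 1). Its small RNA was sparse, with 8, 5 and 15 reads in N001 mycelium, 2, 5 and 6 in PC9 and 3, 0 and 0 in PC15. In N001 mycelium against HyB the difference was -8.26 points (SE 2.65, limma adjusted p = 0.0866). That difference passed the threshold without N001 mycelium replicate 1.

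**Figure D5:**
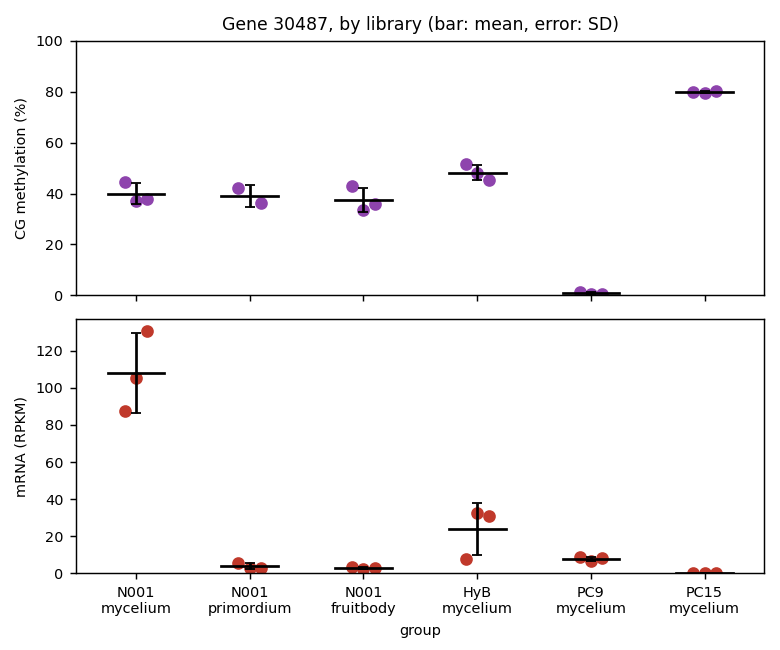
Gene 30487 by library: CG methylation in percent (top) and mRNA in RPKM (bottom) in 6 groups, with points for libraries, bars for means and error bars for SD over 3 libraries (2 for primordium methylation). Methylation averages 0.868% in PC9 and 79.9% in PC15 with 37.5% to 48.2% in the dikaryon groups, and mRNA is highest in N001 mycelium, at 87.7 to 131 RPKM.

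In PC9 against PC15, limma called 4 of the 34 testable genes lower, gene 30487 among them, where 2.56% of all genes were called lower. The other 3 changed by fractions of a percent. Gene 1077307 had 0.189%, 0.202% and 0.195% in PC9 and 0.650%, 0.598% and 0.534% in PC15 (limma adjusted p = 3.12e-05). Gene 1051537, second in mean methylation, had 0.285% ± 0.0459 in PC9 and 0.671% ± 0.106 in PC15 (SD, n = 3 each). Such differences are small beside the levels of methylated genes, and the coverage behind them is unknown. The member that could not be tested was gene 1073080, for which no PC9 methylation value was used. It was also the only one of the 35 with an RPKM under 0.1 in every PC9 library, as 1117 of all genes had. Among these 1117 genes, 590 likewise had no PC9 methylation value.

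The genes were spread over most scaffolds, with some of them close together. They lay on 10 of the 12 scaffolds, with 7 each on scaffolds 1 and 3, 5 each on scaffolds 4 and 5, and none on scaffolds 8 and 12. The median distance to the nearest other member was 216775 bp among the 32 genes that shared a scaffold with another. Adjacent members occurred as 2 pairs, so 4 of the 35 genes had a member as immediate neighbour, against 66 of 11785 other genes. Another member lay within 10 kb of 6 of the 35 genes (17.1%), against 2.24% of other genes, and within 100 kb of 14 of them, against 16.9%. These shares were not tested.

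The pair with the higher mycelium level was genes 1113407 (575531 to 577941) and 1090011 (580051 to 580922) on scaffold 7, 2110 bp apart. Gene 1113407 had 42.6, 69.9 and 82.7 RPKM in mycelium, 1.65, 1.63 and 2.07 in primordium, and 1.19, 1.54 and 1.74 in fruitbody. Gene 1090011 had 103, 832 and 170.4 RPKM in mycelium, 7.98, 11.5 and 13.9 in primordium, and 10.6, 10.9 and 9.72 in fruitbody. Its mycelium libraries differed more among themselves than those of its neighbour, with replicate 2 far above the others. In HyB the pair had 10.8, 66.6 and 66.3 RPKM in gene 1113407 and 10.4, 124 and 146 in gene 1090011, both with replicate 1 low.

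The other pair, genes 1099068 and 1060777 on scaffold 1, lay 555 bp apart and shared a monokaryon pattern. Gene 1060777 (1799382 to 1801104) had 37.1, 18.7 and 14.7 RPKM in PC9 and 3.81, 2.13 and 1.67 in PC15, a difference of 2.73 (limma adjusted p = 1.67e-04). For gene 1099068 the same difference was 3.67 (limma adjusted p = 3.19e-08). In the N001 stages gene 1060777 had 41.3, 103 and 157 RPKM in mycelium, 2.35, 1.13 and 0.694 in primordium and 1.23, 0.599 and 0.756 in fruitbody. Gene 1099068 had 60.0, 84.5 and 114 RPKM in mycelium, 4.49, 3.14 and 3.47 in primordium and 0.909, 1.40 and 1.24 in fruitbody.

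Some of the genes next to the 35 also had lower levels at fruiting. Of 62 tested non-member neighbours, 9 were at least 2 log2 units lower in primordium than in mycelium and 15 in fruitbody. Of all 10893 non-members tested, 635 and 974 were (5.83% and 8.94%). Both counts include genes 1081607, 1095835, 154659 and 199584, which lie in a single stretch of scaffold 3 (50599 to 68780) around members 1037272 and 1111163. They also include gene 1110582, one of the 86 genes left out. Their median difference was -0.49 in primordium and -0.70 in fruitbody, against -0.11 and -0.14. These are counts without a test. None of the 35 lay within 1 kb of a listed TE copy, against 3.84% of all genes, and the nearest, gene 1036190, was 1045 bp away. Within 5 kb there were 2 of the 35, against 11.8% of all genes. Neither count was tested. The median distance to a TE copy was 43677 bp for the 35 and 36630 bp for all genes. The genes were 613 to 3666 bp long with a median of 1672 bp, against 1413.5 bp over all genes, and 4 of them lay within 100 kb of the end of a scaffold, against 6.18% of all genes.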

How the data were processed

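Pleurotus ostreatus libraries of mRNA (18), small RNA (18) and bisulfite-treated DNA (17) were analysed from the deposited tables. Gene mRNA was deposited as RPKM, small RNA as raw read counts and CG methylation as a fraction from 0 to 1 per gene, all per the file headers. FastQC, STAR 2.3.16 and BS-Seeker2 are named in the submitters' processing notes. The genome build, the counting program and its strand setting are not given in the sources used here, and coordinates are those of the deposited tables. Because strand is not stated, reads of overlapping genes cannot be told apart. In 8 genes whose end cell was merged with a scaffold name, the end was read before the plus sign. The tables of transposable element (TE) methylation and TE mRNA were not used. TE small RNA counts entered library totals only.

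The selection of the 35 genes, the comparisons and the rule for naming genes were made with earlier results of these data known. The naming rule took the genes with the largest mean falls, the highest mycelium levels, values just inside or outside the threshold, most small RNA, highest methylation, the run of adjacent genes with the higher mycelium level, and, for each tested comparison, up to 2 rises and 2 falls past the threshold whose libraries did not overlap. The adjacent genes 1099068 and 1060777 were also described together after their values were seen, as were the small RNA values of gene 1090011. Looked up in the RefSeq table of 11849 genes, 0 gene numbers matched, so no gene could be given a name, function or sequence.

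All 6 groups entered each fit, with group as the only term. For mRNA, log2(RPKM + 1), a scale that understates the change of low genes, was fitted with limma-trend (version 3.58.1 under R 4.3.3) over the 10928 genes that reached an RPKM of 1 in 3 or more libraries. For small RNA, the counts were scaled by TMM, filtered by expression and given the quasi-likelihood test of edgeR (version 4.0.16), with DESeq2 1.42.0 as an alternative. Small RNA levels are given as RPM, reads scaled to the gene and TE reads of the library. The deposited methylation fractions were multiplied to percent and tested by limma-trend for the 11140 genes with a value in every library. Their coverage is unknown. All tests were two-sided, with Benjamini-Hochberg adjustment over every gene tested and a threshold of 0.05. Each test was checked on simulated data with known changes. The simulated data held no library that stood apart, and in RNA changed only genes of moderate or higher level. That check therefore does not cover such libraries or genes with few reads.

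Undoing the scaling of the deposited RPKM by length and depth returned whole reads, to within 0.01, for at least 95.5% of values per library, so that mRNA libraries could be given totals, which lay between 19628882 and 30123572. Genes and TE copies together took 191411 to 5746479 reads per small RNA library. Replicates are called biological in the series description. In mRNA reads, replicate 1 differed more from replicates 2 and 3 than these did from each other in every group but fruitbody. In N001 mycelium the chi-square over its degrees of freedom was 347.4 and 359.5 with replicate 1, and 88.75 between replicates 2 and 3. Replicates 2 and 3 were nearly alike in HyB and in primordium (3.82 and 1.56, against 26.1 to 523.5 in the other pairs). A fit with each of these pairs averaged was therefore one of the alternatives. The others were another pseudocount, no filter on low values, library totals in place of TMM, a logit scale for methylation, the replicate number as a block, and each library left out in turn.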

Additional observations from a re-analysis of the deposited data

How the results depend on the processing

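Several choices moved the counts by more than 1.5 times. A threshold of 3 gave 159 genes and one of 5 gave 8, a pseudocount of 0.1 gave 69 and dropping the exclusion gave 121, while leaving out single libraries gave 22 to 71 (the libraries of HyB, PC9 and PC15 were added as an alternative after seeing the data). Fruitbody against primordium mRNA called 1 gene with a pseudocount of 0.1. HyB against PC15 mRNA called 15 to 32 genes with single libraries left out. With library totals in place of TMM, small RNA called 21 genes in primordium against mycelium, 19 in fruitbody against mycelium and 9 in N001 mycelium against HyB. That scaling shifted the median of all genes by -0.55, -0.72 and 0.71 in these comparisons. With single libraries left out, the small RNA calls were 4 to 13 in primordium, falling to 4 or 5 without mycelium replicate 2 or 3 or any primordium library, and 5 to 16 in fruitbody, falling to 5 to 7 without mycelium replicate 2 or 3 or any fruitbody library. Same-numbered libraries did not deviate together throughout (correlations from -0.07 to 0.51 in mRNA, -0.22 to 0.26 in small RNA and -0.27 to 0.66 in methylation), so the numbers were not taken as pairs. The replicate block called 1 methylation difference, gene 30487, in N001 mycelium against HyB, where leaving out single libraries called 0 to 1, and moved no other count of calls by more than 1.5 times. Of the alternatives for single named genes, 197 kept the call and 1 lost it, gene 1073080 in small RNA of primordium against mycelium without primordium replicate 1. These genes were picked as the largest differences past the threshold, so that count does not speak for the set. In mRNA of N001 mycelium against HyB, which was given without a test of the set, 6 to 15 genes were called with single libraries left out, against 12 with all. Low counts limit the fruiting-stage values: a member value in mRNA rested on as few as 4 reads in primordium and 0 in fruitbody. Requiring a methylation value in at least 2 libraries per group left the tested genes as they were.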
